A study of Mus musculus with 6 samples.

Results

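The 10 genes described here encode granule proteins and cytosolic proteins that are abundant in neutrophils, together with the receptor for their growth factor: Lcn2, Ltf, Camp, Ngp, Mpo, Elane, S100a8, S100a9, Retnlg and Csf3r. They were chosen by symbol among the 22180 genes of the array table, each had 1 probe set that the platform annotation gave to that gene alone, and all 10 were measured. RNA levels came from whole-transcript arrays of 6 mouse mammary tumours bearing the PyMT transgene, a source of polyoma middle T antigen that makes mammary epithelium form tumours. Of these, 3 were PyMT+ SG-/- tumours, which lack serglycin, and 3 were PyMT+ SG+/- tumours, which keep a single working allele. Both genotypes carry the transgene, and no tumour with both serglycin alleles and no tumour-free gland was analysed here. The promoter of the transgene, the strain, the age of the mice and the stage of the tumours were not given in the labels. The labels number each sample separately but do not state how the tissue was taken from each mouse, so the p-values measure the spread between these samples. The tissue was bulk tumour, in which fewer cells of a type and less RNA per cell cannot be told apart.

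Neutrophils load their granules in order as they mature in the bone marrow. Azurophil granules with myeloperoxidase and serine proteases come first, specific granules with lactoferrin, lipocalin 2 and cathelicidin follow, and transcripts of the early granule proteins are largely switched off before the cells reach the blood. S100a8 and S100a9 form calprotectin, the most abundant cytosolic protein of mature neutrophils, and their RNA remains high in circulating cells. Serglycin is the proteoglycan whose sulfated chains hold basic proteins inside granules, and mouse neutrophils without it are known to lack elastase in their azurophil granules. The arrays measure RNA and do not read protein or granule content. Lcn2 and Ltf are made outside neutrophils too: mammary and other glandular epithelium secretes both, Ltf into milk and Lcn2 under inflammation.

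All values are log2 expression levels after the robust multi-array average (RMA), and differences are SG-/- minus SG+/- on that scale. Srgn, the targeted gene, stood at 5.07, 5.04 and 4.89 in SG-/- tumours, against 6.76, 6.43 and 6.35 in SG+/- tumours, with no overlap between genotypes. Its difference was -1.52, and its limma adjusted p of 0.467 was the smallest over all genes. The test across all genes thus did not call the targeted gene itself. The arrays correlated at 0.941 to 0.989 across probe sets. As a mark of background, 1390 genes for olfactory or vomeronasal receptors were taken as silent, and their 95th percentile was read on each array. It lay at 6.42, 7.02 and 8.04 on SG-/- arrays 1 to 3 and at 6.47, 7.69 and 7.53 on SG+/- arrays 1 to 3, so background differed between arrays of the same genotype. Srgn passed this mark on 1 array only, SG+/- replicate 1, so a gene below the mark can still carry signal. Probe sets also differ in brightness, so the mark is a guide to detection, and levels of different genes were not ranked.

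Lcn2 and Ltf were far above this background in every tumour, and 7 of the 10 genes were above it in none. Those 7 were S100a8, S100a9, Camp, Ngp, Mpo, Elane and Retnlg, which include the calprotectin pair that marks mature neutrophils. Csf3r passed the mark on 3 arrays. No member differed between genotypes by the test across all genes: limma called 0 of the 10 members, beside 0 of 22180 genes (0%), at an adjusted p of 0.05. The count of members with an unadjusted p under 0.05 was again 0, while 2.11% of all genes passed, and the genotypes overlapped in all 10, while 6.03% of all genes had no overlap. Of the members, 4 were higher and 6 lower in SG-/- tumours. Their median difference was -0.05, beside -0.01 over all genes, of which 46.3% were higher. With 10 genes, shares this low would give few or no members past either mark.

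**Figure D1:**
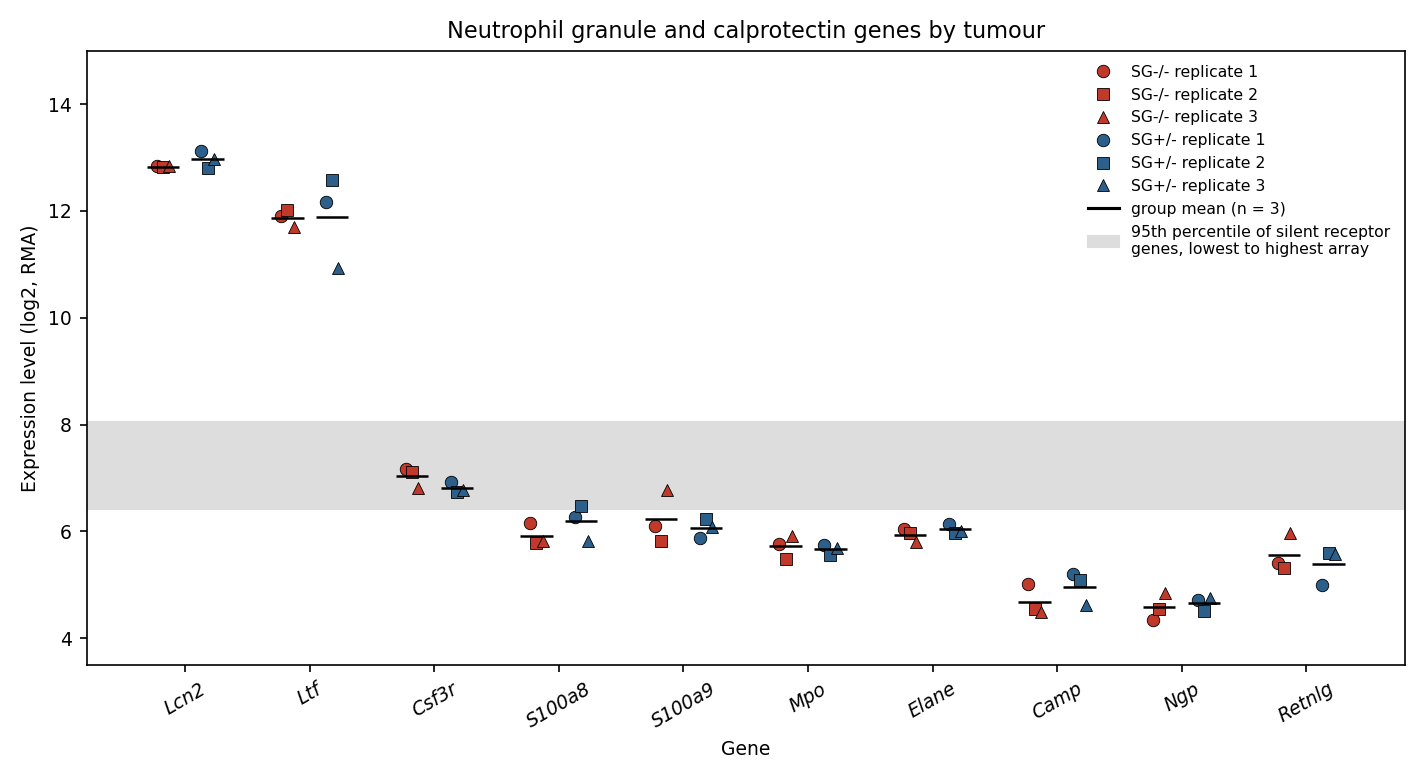
Expression level (log2, RMA) of the 10 genes in each tumour, SG-/- in red to the left and SG+/- in blue, with group means as black lines (n = 3 each) and a grey band from the lowest to the highest array's 95th percentile of silent receptor genes (6.42 to 8.04). Lcn2 and Ltf lie between 10.9 and 13.1, and the other 8 genes between 4.34 and 7.16.

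Lcn2 encodes lipocalin 2, a specific granule protein that binds bacterial siderophores and so withholds iron. Its level was 12.84, 12.82 and 12.83 in SG-/- tumours, against 13.13, 12.81 and 12.97 in SG+/- tumours. The SG-/- tumours were almost identical, and they lay inside the SG+/- range. Lcn2 averaged 12.83 ± 0.01 in SG-/- tumours against 12.97 ± 0.16 in SG+/- tumours (SD, n = 3 each), which is a difference of -0.14 (standard error 0.13, 95% interval -0.45 to 0.17, limma adjusted p = 1.00). On the linear scale the interval runs from a ratio of 0.733 to 1.12. Lcn2 varied little: the gap between its highest and lowest tumour was 0.32, and 14.5% of all genes had a smaller one. Its values lay near the top of the scale, which reached 14.1 on these arrays, where differences can be compressed. Whether its probes were saturated was not tested.

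Ltf encodes lactoferrin, an iron-binding protein of specific granules and of milk. It stood at 11.90, 12.02 and 11.70 in SG-/- tumours, against 12.18, 12.58 and 10.93 in SG+/- tumours. The SG+/- tumours surrounded the SG-/- tumours on both sides, with SG+/- replicate 3 lowest and SG+/- replicate 2 highest. Ltf averaged 11.88 ± 0.16 in SG-/- tumours against 11.89 ± 0.86 in SG+/- tumours (SD, n = 3 each), and its difference was -0.02 (standard error 0.40, 95% interval -0.96 to 0.92, limma adjusted p = 1.00). The interval allows a ratio anywhere from 0.516 to 1.89. Ltf was the most variable of the 10 genes, with a range of 1.65 over the tumours, and 95.1% of all genes had a smaller range. The value depended on single tumours: with SG+/- replicate 3 left out the difference became -0.50 (limma unadjusted p = 0.0448, adjusted p = 1.00), and with SG+/- replicate 2 left out it became 0.32.

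The promoter windows of Lcn2 and Ltf, the members seen in all tumours, are shown beside those of S100a8 and S100a9, the adjacent calprotectin genes that stayed at background. They are RefSeq windows of GRCm38.p6, 300 bases each, from 250 before to 50 after the annotated start, written 5′ to 3′ on the strand of the gene: Lcn2 at chr2:32387690-32387989 (minus strand), Ltf at chr9:111019042-111019341 (plus), S100a8 at chr3:90668821-90669120 (plus) and S100a9 at chr3:90695672-90695971 (minus). Capitals mark matches, on either strand, to the C/EBP-type letters TTNNGNAA and to the TATA-box letters TATAAA.
Lcn2: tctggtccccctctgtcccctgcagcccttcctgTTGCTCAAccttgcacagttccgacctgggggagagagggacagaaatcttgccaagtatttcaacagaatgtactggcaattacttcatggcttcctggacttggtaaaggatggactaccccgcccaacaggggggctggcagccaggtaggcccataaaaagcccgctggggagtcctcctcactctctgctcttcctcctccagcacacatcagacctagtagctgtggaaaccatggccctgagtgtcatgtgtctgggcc
Ltf: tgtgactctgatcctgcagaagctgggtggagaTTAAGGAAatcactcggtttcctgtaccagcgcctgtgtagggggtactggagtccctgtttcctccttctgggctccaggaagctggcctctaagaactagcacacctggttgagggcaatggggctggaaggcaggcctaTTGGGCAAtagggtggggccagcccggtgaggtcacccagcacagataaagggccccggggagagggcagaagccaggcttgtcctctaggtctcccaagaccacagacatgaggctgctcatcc
S100a8: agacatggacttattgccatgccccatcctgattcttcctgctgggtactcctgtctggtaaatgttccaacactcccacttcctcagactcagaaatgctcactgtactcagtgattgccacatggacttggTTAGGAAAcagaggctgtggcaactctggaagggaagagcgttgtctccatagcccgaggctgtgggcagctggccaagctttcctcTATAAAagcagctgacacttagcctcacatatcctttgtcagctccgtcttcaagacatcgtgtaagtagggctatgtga
S100a9: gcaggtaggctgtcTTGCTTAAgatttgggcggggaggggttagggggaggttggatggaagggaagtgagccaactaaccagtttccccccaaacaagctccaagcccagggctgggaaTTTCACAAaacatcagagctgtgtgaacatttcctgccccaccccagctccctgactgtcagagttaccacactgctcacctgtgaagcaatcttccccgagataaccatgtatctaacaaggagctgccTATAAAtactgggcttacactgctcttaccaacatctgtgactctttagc
No matches overlapped in these 4 windows. C/EBP factors drive granule genes in maturing neutrophils and respond to inflammation in epithelium. All 4 windows held TTNNGNAA, as did 6 of the 10 members' windows and 40.7% of 32851 promoter windows. TATAAA was found in the windows of S100a8 and S100a9 alone among the members, against 13.6% of all windows. The STAT-type letters TTCNNNGAA were found in 0 of the 10 members' windows and in 8.3% of all. These matches describe the letters of the windows only.

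S100a8 was at background in all 6 tumours. Its level was 6.16, 5.78 and 5.83 in SG-/- tumours, against 6.28, 6.47 and 5.83 in SG+/- tumours. Its difference was -0.27 (standard error 0.20, 95% interval -0.75 to 0.21, limma adjusted p = 1.00). Its partner S100a9 stood at 6.10, 5.82 and 6.77 in SG-/- tumours, against 5.88, 6.23 and 6.09 in SG+/- tumours, a difference of 0.16 with a standard error of 0.25. The highest S100a9 value came from SG-/- replicate 3, the array with the highest receptor background, while S100a8 was low on that array. Without SG-/- replicate 3 the S100a9 difference was -0.11. The differences of the calprotectin partners thus had opposite signs over all 6 tumours, and neither was larger than the spread between tumours of a genotype.

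Camp and Ngp, the other specific granule genes among the 10, were also at background. Camp encodes the precursor of the mouse cathelicidin, an antimicrobial peptide. Its level was 5.01, 4.54 and 4.48 in SG-/- tumours, against 5.19, 5.09 and 4.61 in SG+/- tumours, and its difference of -0.29 was the largest in size among the 10 genes over all 6 tumours (standard error 0.22, limma adjusted p = 1.00). Without SG+/- replicate 3 it was -0.47, when that of Ltf was larger. The genotypes overlapped, since SG-/- replicate 1 lay above SG+/- replicate 3. Ngp, a neutrophil granule protein related to the cathelicidins, stood at 4.34, 4.54 and 4.84 in SG-/- tumours, against 4.71, 4.51 and 4.75 in SG+/- tumours. Its difference was -0.08, with SG-/- tumours at both the lowest and the highest value.

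The azurophil granule genes Mpo and Elane differed little between tumours. Mpo, which encodes the peroxidase that makes hypochlorous acid, had levels of 5.77, 5.49 and 5.91 in SG-/- tumours, against 5.74, 5.57 and 5.68 in SG+/- tumours. Its difference was 0.06 with a 95% interval from -0.29 to 0.41. Elane encodes neutrophil elastase, the granule protease whose storage depends on serglycin in mouse neutrophils. It stood at 6.05, 5.96 and 5.80 in SG-/- tumours, against 6.14, 5.97 and 6.00 in SG+/- tumours, a difference of -0.10 with a 95% interval from -0.41 to 0.21 (limma adjusted p = 1.00). Since both genes lay at background in every tumour, these intervals bound the probe signal. Whether that signal followed the transcript at this level was not tested.

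Retnlg, a resistin-like gene of mouse neutrophils, had levels of 5.40, 5.31 and 5.97 in SG-/- tumours, against 4.996, 5.60 and 5.58 in SG+/- tumours. Its difference was 0.17 (standard error 0.24), and it was -0.04 without SG-/- replicate 3. That array held the highest value of 4 members, S100a9, Ngp, Mpo and Retnlg. The mean of the silent receptor genes was 5.87 there, against 4.58 and 5.13 in the other SG-/- tumours and 4.58, 5.63 and 5.50 in SG+/- tumours. The part of this background in the members' differences was not tested beyond an alternative with the receptor mean as a covariate, chosen after the data were seen, in which the differences were 0.18 for S100a9, -0.07 for Ngp, 0.06 for Mpo and 0.19 for Retnlg.

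Csf3r encodes the receptor for G-CSF, the growth factor that drives neutrophil production and survival. Its level was 7.16, 7.11 and 6.82 in SG-/- tumours, against 6.92, 6.74 and 6.77 in SG+/- tumours. The highest 2 values were SG-/- tumours, and SG-/- replicate 3 lay below SG+/- replicate 1, so the genotypes overlapped. Csf3r averaged 7.03 ± 0.19 in SG-/- tumours against 6.81 ± 0.10 in SG+/- tumours (SD, n = 3 each). Its difference of 0.22 (standard error 0.14, 95% interval -0.12 to 0.56) had the smallest unadjusted p of the 10 genes in limma (0.170; adjusted p = 1.00). It was 0.33 without SG-/- replicate 3 (limma unadjusted p = 0.0291, adjusted p = 0.858) and 0.32 with arrayWeights (unadjusted p = 0.00938, adjusted p = 0.311). The exact two-sided permutation p was 0.2, where 0.1 is the smallest that 3 against 3 values allow. Csf3, its ligand, was at background on all arrays, with 6.31, 6.38 and 6.22 in SG-/- tumours against 6.43, 6.55 and 6.25 in SG+/- tumours. Csf3r is also carried by monocytes and some macrophages. In the list of macrophage and monocyte genes, SG-/- tumours had the higher mean for 12 of 12 measured genes and the median difference was 0.37, while 46.3% of all genes were higher. Limma passed 4 of the 12 at an unadjusted p of 0.05, beside 1.43% of all genes that were higher at that p, and 0 after adjustment over all genes. The mean level of that list was 9.47, 8.96 and 8.55 in SG-/- tumours and 8.55, 8.53 and 8.41 in SG+/- tumours, and 9 of its 12 genes were above background on all arrays. SG-/- replicate 1 was thus highest both for Csf3r and for this list. The part of macrophages and monocytes in the Csf3r difference was not tested.

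**Figure D2:**
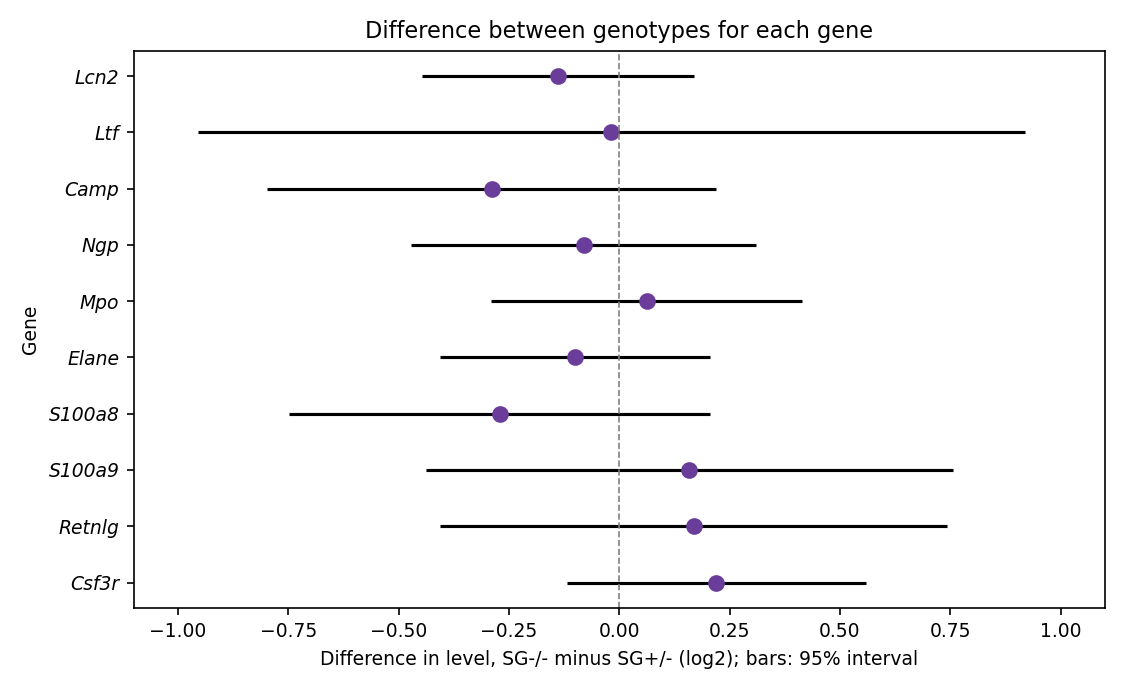
Difference in level between genotypes, SG-/- minus SG+/- (log2), for each of the 10 genes, with limma's 95% interval as a bar (n = 3 each). All 10 intervals include 0, the widest is that of Ltf (-0.96 to 0.92), and the points lie between -0.29 and 0.22.

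Other genes of the neutrophil programme, taken from lists, also gave no call in limma after adjustment over all genes. Among 6 other azurophil granule and myeloblast genes, 4 were at background on every array. Prtn3, the protease gene next to Elane on the chromosome, stood at 7.27, 7.09 and 6.77 in SG-/- tumours, against 8.03, 7.07 and 6.93 in SG+/- tumours. Only Ctsc, which encodes the peptidase that activates granule serine proteases and is made by many cell types, was above background on all arrays, with a difference of 0.10. Among 16 measured receptors and surface markers of mature neutrophils, SG-/- tumours had the higher mean for 14, beside 46.3% of all genes. The median difference was 0.12, but 0 passed an unadjusted p of 0.05, and 0 were above background on all arrays. Without SG-/- replicate 3, the array with the highest receptor background, 10 of the 16 were higher, and with arrayWeights 9 were. The largest differences, named after their values were seen, were those of Fcgr4 (0.36), Ptafr (0.36), Itgam (0.33) and Itgb2 (0.29), which monocytes and macrophages also carry. Next came Itgb2l at 0.27, with the smallest unadjusted p of the list in limma (0.155). It lay at background on every array and stayed between 0.20 and 0.41 when single tumours were left out. Ly6g, the defining surface marker of mouse neutrophils, stood at 4.44, 4.31 and 5.81 in SG-/- tumours, against 4.51, 4.92 and 4.80 in SG+/- tumours. SG-/- replicate 3 alone was high, and without it the Ly6g difference turned to -0.37. Stfa1, a stefin A cytosolic protease inhibitor of mouse neutrophils, was likewise highest on that array, with 5.50, 5.88 and 7.10 in SG-/- tumours, against 5.79, 6.47 and 6.31 in SG+/- tumours, at background throughout. Of 7 transcription factors of granulocyte formation, 3 were higher and 4 lower in SG-/- tumours. The median difference was -0.11, and 0 passed an unadjusted p of 0.05. Runx1, above background on all arrays, was lower without overlap (3.19% of all genes), with a difference of -0.21. The gap was narrow, from 10.240 in SG-/- replicate 1 to 10.241 in SG+/- replicate 1. Cebpe, which drives specific granule formation, was at background throughout, with a difference of 0.22, or 0.016 without SG-/- replicate 3.

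Of 12 other specific and gelatinase granule genes, 6 were higher and 6 lower in SG-/- tumours, and the median difference was 0.02. The list held 2 genes with an unadjusted p under 0.05, and both were lower in SG-/- tumours. Pglyrp1 encodes a peptidoglycan recognition protein of granules and of epithelium. Its level was 9.33, 8.83 and 9.29 in SG-/- tumours, against 9.88, 10.06 and 9.51 in SG+/- tumours, above background on all arrays. The genotypes did not overlap, and its difference was -0.67 (standard error 0.21, limma unadjusted p = 0.0140, adjusted p = 1.00). Cd177 encodes a surface and granule glycoprotein of neutrophils. It stood at 6.75, 7.18 and 6.72 in SG-/- tumours, against 7.92, 7.49 and 7.29 in SG+/- tumours, and passed background on 3 arrays. Again there was no overlap, and its difference was -0.68 (standard error 0.21, limma unadjusted p = 0.0142, adjusted p = 1.00). Over all genes, 0.685% were lower at that unadjusted p and 3.19% were lower without overlap. Leaving out single tumours kept Pglyrp1 between -0.82 and -0.51 and Cd177 between -0.83 and -0.51, while arrayWeights, which weights arrays by their fit, gave -0.78 for Pglyrp1 and -0.37 for Cd177. Mmp8, the neutrophil collagenase of the same granules, was at background on every array, with 5.78, 5.90 and 6.38 in SG-/- tumours, against 5.91, 6.06 and 5.88 in SG+/- tumours.

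Lcn2 and Ltf were set beside secreted epithelial defence genes and milk protein genes, since glandular epithelium makes them too. Of 10 measured defence genes, 7 were above background on all arrays, 3 were higher and 7 lower in SG-/- tumours, and the median difference was -0.23, with 0 past an unadjusted p of 0.05. Slpi, a secreted protease inhibitor of glands and neutrophils, had levels of 9.40, 9.61 and 9.45 in SG-/- tumours, against 10.14, 10.40 and 9.31 in SG+/- tumours. As for Ltf, SG+/- replicate 3 was lowest and SG+/- replicate 2 highest. Hp, which encodes the haemoglobin carrier haptoglobin and is stored in specific granules, had the same extremes, with 9.21, 9.01 and 9.12 in SG-/- tumours, against 8.32, 10.78 and 8.09 in SG+/- tumours. Lbp, which encodes the lipopolysaccharide-binding protein, stood at 10.57, 10.74 and 10.24 in SG-/- tumours, against 11.80, 11.39 and 10.48 in SG+/- tumours, a difference of -0.71 with a standard error of 0.33 (limma adjusted p = 1.00). With arrayWeights it was -0.25, and leaving out SG+/- replicate 3 made it -1.08, against -0.42 when SG+/- replicate 1 was left out. Of the milk genes, Lalba, which encodes alpha-lactalbumin, was lowest in SG+/- replicate 2, with 12.66, 12.38 and 12.31 in SG-/- tumours, against 13.03, 9.83 and 11.89 in SG+/- tumours. Wap, the whey acidic protein gene, was highest in SG+/- replicate 1 at 9.46 and, like Ltf, lowest in SG+/- replicate 3, at 6.81. The casein gene Csn2, named after its values were seen, was instead highest in SG+/- replicate 3, at 8.49. Of the 8 milk genes, 4 were higher and 4 lower in SG-/- tumours, and the median difference was -0.01. Salivary gland genes differed strongly between tumours. Of 10 measured, 8 had the higher mean in SG-/- tumours, beside 46.3% of all genes, and the median difference was 1.99. Without overlap, 3 were higher in SG-/- tumours (2.84% of all genes) and 1 was lower (3.19%), Dcpp2 with a difference of -2.54. The mean level of the list was 9.46, 7.48 and 9.28 in SG-/- tumours and 6.50, 7.52 and 7.24 in SG+/- tumours. Dcpp2 was highest in SG+/- replicate 2, at 10.66, as was Ltf. Bpifa2 (difference 5.27) and Klk1 (4.45) were instead lowest in SG+/- replicate 2, at 5.98 and 3.99. The part of salivary tissue in the levels of Lcn2 and Ltf was not tested. Mammary luminal genes were above background on all arrays in 7 of 8 cases, and their mean level was 10.8, 10.8 and 10.5 in SG-/- tumours and 10.7, 10.5 and 10.5 in SG+/- tumours. Of the 8, 5 were higher and 3 lower in SG-/- tumours. Krt19 alone passed an unadjusted p of 0.05, with a difference of 0.89 (limma unadjusted p = 0.0176). Over all genes, 1.43% were higher at that p. Krt8 was higher without overlap (2.84% of all genes), with a difference of 0.13. After adjustment 0 of the 8 passed. Which cells made the Lcn2 and Ltf transcripts was not tested.

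**Figure D3:**
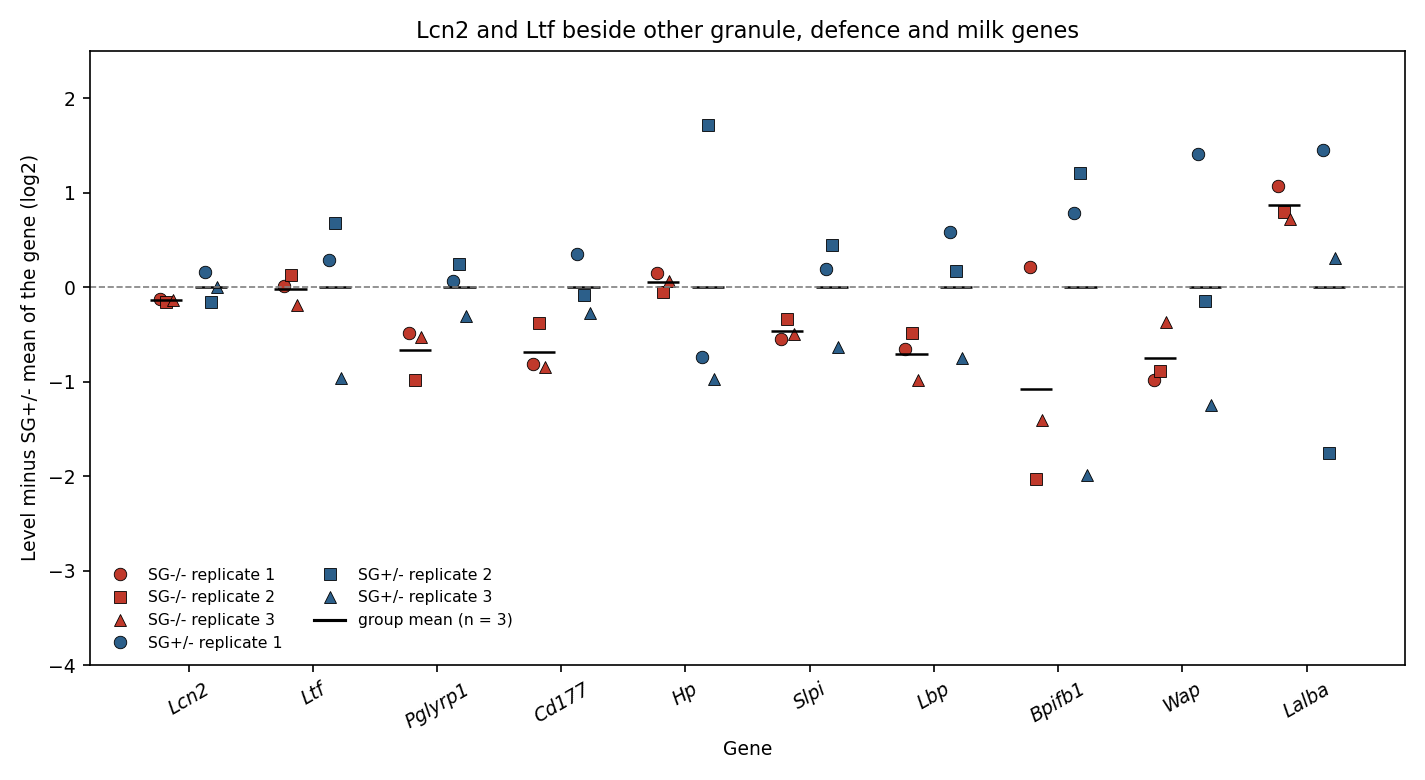
Level of each gene in each tumour relative to its SG+/- mean (log2), SG-/- in red to the left and SG+/- in blue, with group means as black lines (n = 3 each). Lcn2 stays within a range of 0.32, Ltf spans 1.65 with SG+/- replicates 3 and 2 at its ends, and Pglyrp1 and Cd177 are lower in each SG-/- tumour than in any SG+/- tumour.

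The genes whose pattern over the 6 tumours was most like each member were found by Pearson's r among 1340 genes (1339 for Ltf). These had a mean above the 40th percentile of probe sets and a range of at least 1. Receptor genes of the background set, trace amine receptors, predicted or clone-named genes, pseudogenes and small RNAs were left out by symbol. With so many candidates and 6 arrays, high values of r arise readily, so they are given as a description only. For Lcn2 these were Fkbp5 (r = 0.962), Duox1 (0.962) and Duoxa1 (0.955). For Ltf they were Mpc1 (0.980), Renbp (0.953) and Tns4 (0.944). For Csf3r they were Cd180 (0.990), Selplg (0.980) and Tgfbi (0.978). For S100a8 and Camp, Bpifb1 (0.981 and 0.943) and Sgce (0.965 and 0.978) stood among the 3 nearest, and these members lay at background.

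The other S100 genes and the NADPH oxidase were read beside the calprotectin and granule genes. Of 13 other S100 genes, SG-/- tumours had the higher mean for 11, beside 46.3% of all genes, and the median difference was 0.09. In limma 3 passed an unadjusted p of 0.05, beside 2.11% of all genes, and 0 passed the adjusted threshold. Of these 3 genes, 2 were higher and 1 lower in SG-/- tumours. S100a4, a calcium-binding protein of motile stromal and immune cells, had levels of 6.56, 6.85 and 6.42 in SG-/- tumours, against 5.97, 5.98 and 6.01 in SG+/- tumours, and was above background on 1 array. S100a6, another calcium-binding protein made by many cell types, had 11.09, 10.88 and 10.81 in SG-/- tumours, against 10.63, 10.60 and 10.21 in SG+/- tumours, also without overlap. Their differences were 0.63 and 0.44, while that of S100b was -0.58, or -0.23 with arrayWeights. Of 5 measured oxidase genes, 3 were higher and 2 lower in SG-/- tumours, and the median difference was 0.15. Cybb and Rac2, a GTPase of blood cells that activates the enzyme, were higher, each with an unadjusted p under 0.05 and without overlap. Cyba, by contrast, had a difference of -0.19. Over all genes, 1.43% were higher at that p and 2.84% were higher without overlap. Cybb, the catalytic subunit of the phagocyte oxidase, stood at 10.36, 10.07 and 9.83 in SG-/- tumours, against 9.74, 9.43 and 9.65 in SG+/- tumours, a difference of 0.48 (standard error 0.17, limma adjusted p = 1.00). The oxidase is shared by neutrophils and macrophages, and which cells carried these transcripts was not tested. Whether the differences of S100a4, S100a6, Cybb or Rac2 differ from those of the 10 members was not tested.

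**Figure D4:**
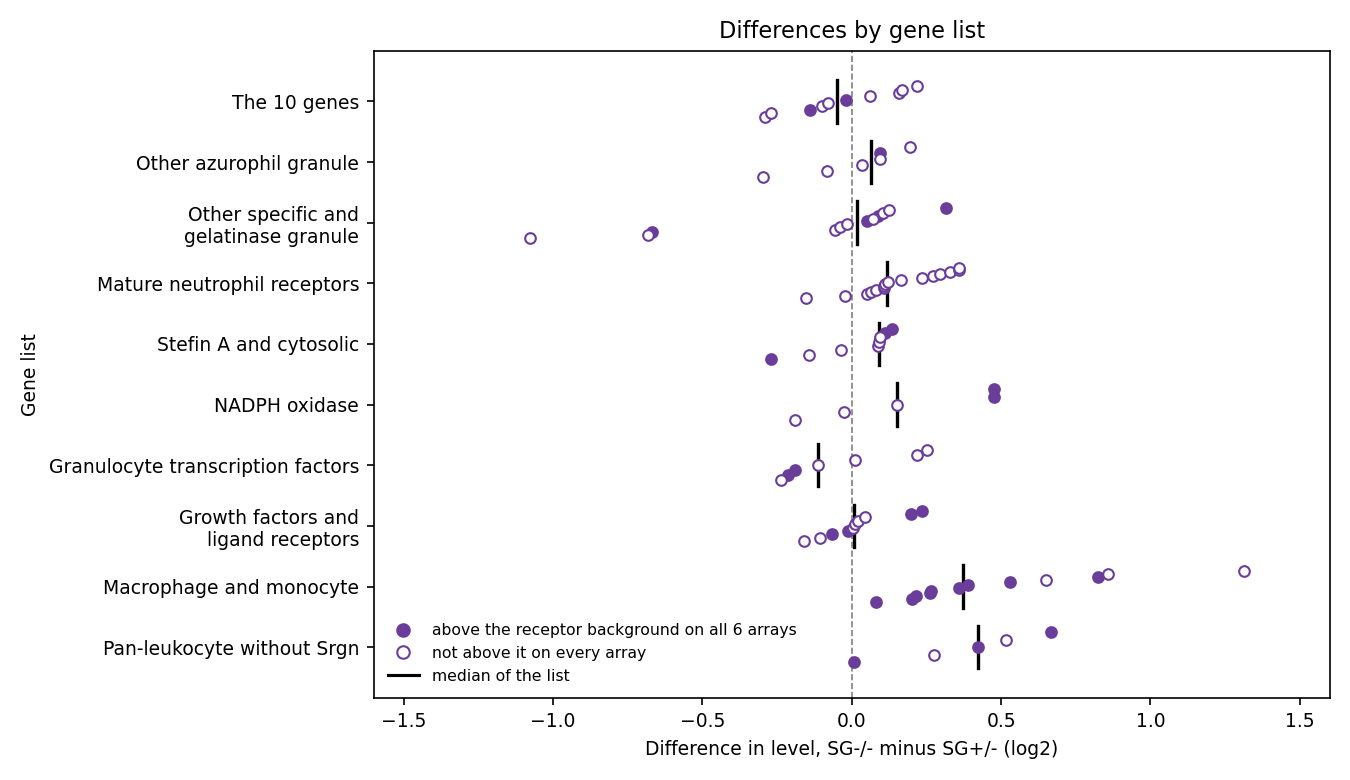
Difference in level, SG-/- minus SG+/- (log2), for the measured genes of 10 lists, with Srgn left out of the pan-leukocyte list. Filled points are genes above the receptor background on all 6 arrays. Black lines mark each list's median over the genes shown. The 10 genes lie on both sides of 0, and the macrophage and monocyte genes all lie above it.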

How the data were processed

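RNA from 3 SG-/- and 3 SG+/- PyMT tumours was measured on Affymetrix arrays, 1 array per tumour. The deposited values are log2 levels for each probe set, computed by the authors with RMA (background correction, quantile normalization and summary per probe set), per the series description. Per the submitters' processing notes, the tools were limma, RMA and the Affymetrix Expression Console, with no versions given. The table held 33793 probe sets with 0 missing values and 0 unused value columns. The arrays did not share one distribution in it. Medians ran from 6.50 (SG+/- replicate 1) to 6.73 (SG-/- replicate 3), and interquartile ranges from 2.56 (SG-/- replicate 3) to 3.15 (SG-/- replicate 1). Of the probe sets, 23521 had 1 gene symbol in the platform annotation, 1814 several and 8458 none. For genes with several probe sets the brightest by its 6-array mean stood for the gene, leaving 22180 genes. Precision is limited by having 3 arrays per genotype.

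The SG-/- minus SG+/- difference was fitted in limma 3.58.1 (lmFit, eBayes; R 4.3.3) and tested two-sided. P-values were adjusted over all 22180 genes by Benjamini-Hochberg, with a threshold of 0.05. Single members also had an exact permutation test (scipy 1.17.1). The test was checked on simulated data. A gene counted as above background on an array when it exceeded the 95th percentile of 1390 receptor genes. No sample is paired by the labels. Replicate numbers were given here in the order of the deposited samples, so a number shared by both genotypes links no tumours. All 10 members were named. Of each other list the gene written first and up to 3 genes with the smallest p or widest range could be named. For each member the 3 genes most like it by Pearson's r were found. The members and lists were chosen with earlier results of these data known. Symbols of all 10 members matched their Entrez IDs in RefSeq GRCm38.p6. Alternatives were a filter on dim genes (mean under 6.09), quantile normalization again, centring on brighter genes, arrayWeights, a robust eBayes fit with trend, averaging a gene's probe sets, testing all probe sets, and leaving out each tumour. The receptor mean as a covariate was chosen after seeing the data. Figures used matplotlib 3.10.9 (Python 3.11.15).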

Additional observations from a re-analysis of the deposited data

How the results depend on the processing

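No member was called under any of the 14 alternatives (the filter on dim genes left 4 members tested). Of 134 member differences 122 kept their direction and 12 reversed. The filter on dim genes, the robust fit with trend and both probe-set alternatives repeat the main estimate for these members, so they could not reverse it. All 12 reversals came from arrayWeights or from leaving out 1 tumour. In limma 0 of the 134 passed the adjusted threshold (smallest adjusted p = 0.311, for Csf3r with arrayWeights). Of the 134, 3 had an unadjusted p under 0.05 (Csf3r with arrayWeights and without SG-/- replicate 3, and Ltf without SG+/- replicate 3). Lcn2, S100a8, Camp, Elane and Csf3r kept their direction throughout, Lcn2 between -0.22 and -0.06 Csf3r between 0.15 and 0.33, S100a8 between -0.45 and -0.13, Camp between -0.47 and -0.18, and Elane between -0.16 and -0.032. With arrayWeights, which weighted SG-/- replicate 2 at 4.95 and SG-/- replicate 3 at 0.197, S100a9 was -0.18, Ltf 0.45, Mpo -0.12 and Retnlg -0.12. Leaving out 1 tumour at a time gave ranges of -0.11 to 0.36 for S100a9, -0.50 to 0.32 for Ltf, -0.21 to 0.036 for Ngp, -0.031 to 0.18 for Mpo and -0.036 to 0.30 for Retnlg. The median over members was 0.070 without dim genes, where fewer genes were tested, and -0.14 with arrayWeights. The cause of the other shifts was not tested. Over all genes, 1 was called with the receptor mean as a covariate, and 0 to 1 when single tumours were left out. No paired analysis was possible because the labels give no shared replicate numbers. For the 7 members at background on every array, the probe signal limits what could be seen.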
